A study of Mus musculus with 6 samples.

Results

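The genes described here encode the regulators that stand between a TNF-family death receptor and the caspases: Cflar, the adaptor Fadd, the caspase Casp8, the inhibitor of apoptosis (IAP) genes Birc2, Birc3 and Xiap, and the TNF receptor-associated factors Traf1, Traf2 and Traf3. They were chosen by symbol, as the rows of the deposited array table whose annotation gives a single gene symbol equal to one of these 9 names, and the row with the highest mean over all arrays stood for a gene with several. Of the 9 genes, 8 had such a row, among 30102 genes in all; Traf3 had no row naming it alone and was not analysed here. Cflar had 2 rows and each of the other 7 genes had 1, which gave 9 rows.

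Death receptors recruit FADD, which gathers procaspase-8 so that it activates itself and starts apoptosis. CFLAR, also called c-FLIP, resembles caspase-8 without its enzymatic activity and enters the same complex, where it limits that activation. TRAF2, with TRAF1 as a partner, brings the cellular IAPs BIRC2 and BIRC3 to TNF-family receptors, where these attach ubiquitin chains that favour NF-kB signalling over death, and XIAP binds and blocks active caspases.

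The study compared 3 arrays of mouse bone marrow-derived mast cells (BMMCs) after ionomycin with 3 arrays of naive BMMCs. BMMCs are a primary culture, here from C57BL/6J femurs, matured for 6 weeks with interleukin 3 and supernatant holding stem cell factor. Ionomycin cells spent 1 h in Tyrode's buffer with 1 µg/mL of ionomycin, a calcium ionophore that makes mast cells degranulate, and then 3 h in medium, 4 h in all. Naive cells had the same hour in buffer without ionomycin and the same 3 h in medium, and all cells otherwise shared strain and culture. The labels do not say whether replicates came from separate mice or cultures, so a p-value here reflects only how these arrays vary, and that variation may be technical.

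All values are log2 signals of the authors' processed table, with a precision set by 3 arrays a group. Replicate 1 of each group lay away from the other arrays: principal component 1 (52.6% of variance) placed these arrays at -21.2 (ionomycin) and -48.0 (naive) and the others between 13.0 and 21.9. The members' differences, and those of other genes where stated, are therefore also given without these arrays. Mast cell identity was clear: 8 of 9 measured mast cell markers lay above background, and only Enpp3 lay below it. The mean level of the 9 per array was 11.98 to 12.03 in ionomycin and 12.01 to 12.04 in naive arrays. This mean covers unlike log2 differences, ionomycin minus naive, from -0.62 for Ms4a2 to 1.04 for Hdc. Basophil markers averaged 9.59 to 10.77 in ionomycin and 9.65 to 10.71 in naive arrays, and macrophage markers 7.83 to 8.21 and 7.81 to 8.06. Neutrophil, dendritic, B, T and erythroid cell markers averaged 5.54 to 6.66 in ionomycin and 5.4 to 6.56 in naive arrays. Of the genes in these 8 marker lists, 0 passed the test described next (limma). Their part in the differences below was not tested, and in bulk RNA fewer cells of a type and less RNA per cell cannot be told apart.

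After ionomycin, 1 of the 8 measured genes rose and 0 fell. The gene that rose was Cflar, the inhibitor of caspase-8 activation, at 1.49-fold in the brighter of its 2 rows. That row carries an identifier of chromosome 3, and the locus it reads was not tested. The other row, with the identifier of chromosome 1 where RefSeq places Cflar, was at 1.24-fold. With it standing for the gene, Cflar did not pass (limma adjusted p = 0.136). Casp8, Fadd and Xiap were lower in every ionomycin array than in any naive array, by 0.23 to 0.29 on the log2 scale, and these 3 differences did not pass the test. Of all genes 7.31% were lower and 18.9% higher in this way, without overlap between the groups. Calls are limma's at an adjusted p under 0.05, with Benjamini-Hochberg adjustment over all 30102 genes, a rule that called 0.289% of genes higher and 0.0598% lower (87 and 18 genes, or 69 and 32 after centring each array on its median). With the replicate number as a block, the rule called 0.395% higher and 0.11% lower (119 and 33 genes), and the members' counts were again 1 and 0. After centring they were 0 and 0, with Cflar at an adjusted p of 0.0504 in limma. Without adjustment, at p under 0.05, Cflar was higher and Xiap lower among the 8 genes, and 10.2% of all genes were higher and 5.44% lower. The median of the 8 differences was -0.14, beside 0.05 for all genes. All 8 genes had a mean above the background level of 6.05, set from chemosensory receptor genes.

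**Figure D1:**
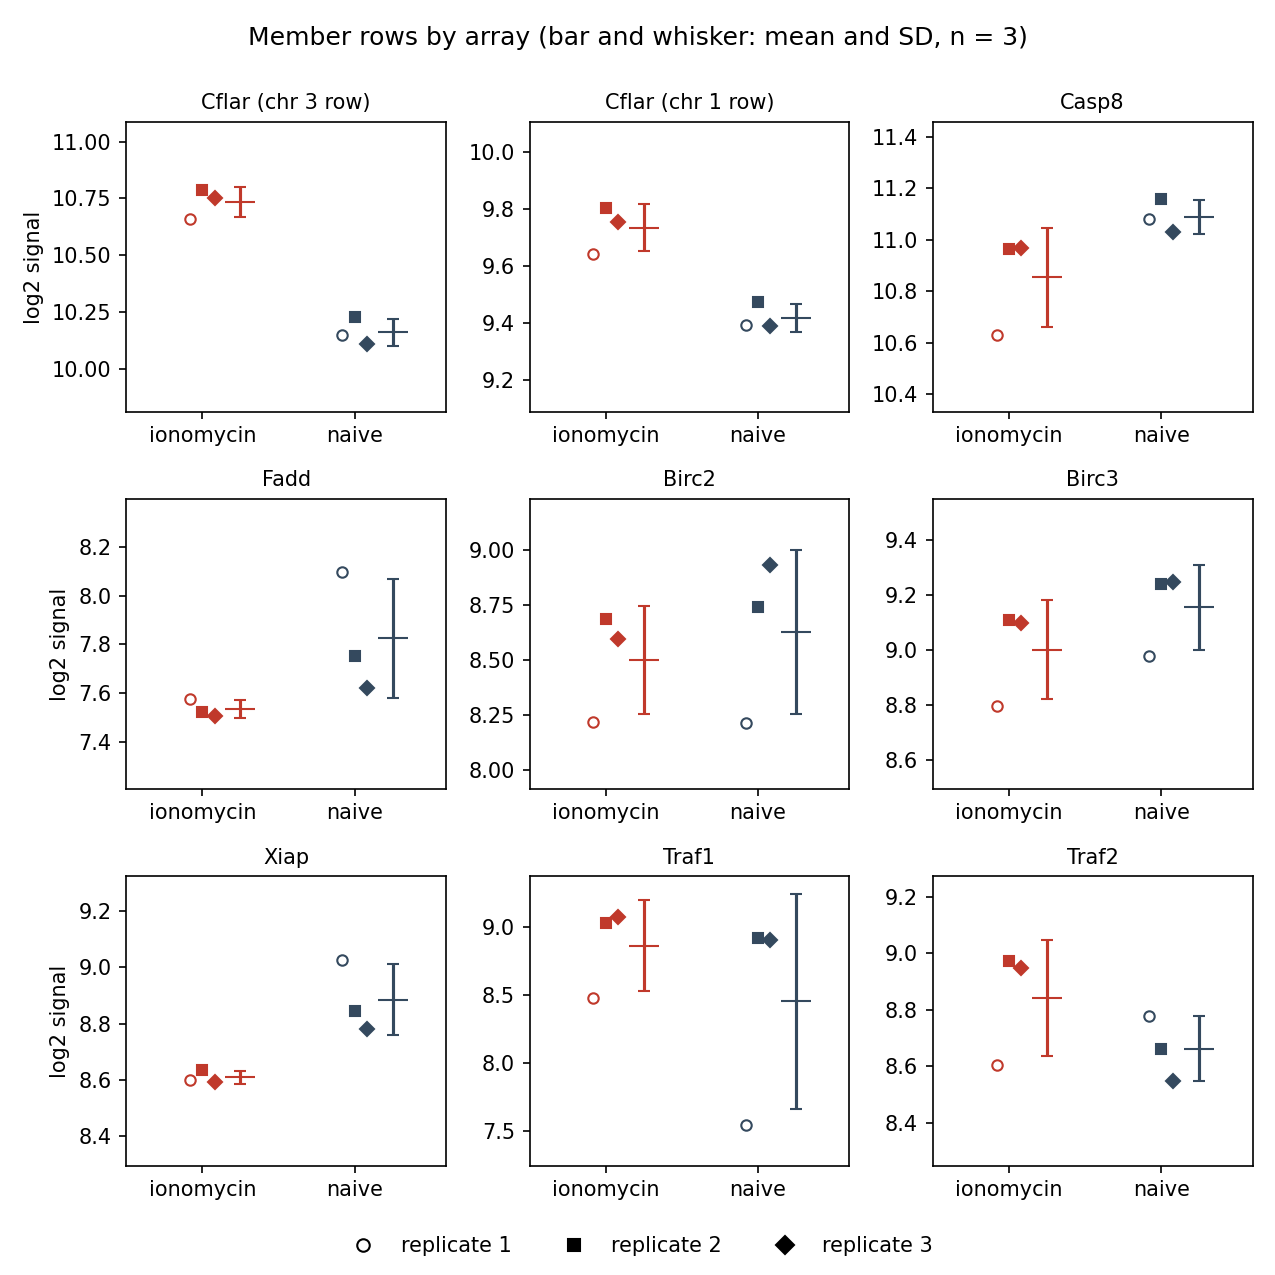
Log2 signal (vertical axes, each panel with its own range) of the 9 member rows in each array, ionomycin left of naive, with replicates 1, 2 and 3 as circle, square and diamond and the mean and SD (n = 3) beside them. Both Cflar rows are higher and Casp8, Fadd and Xiap lower in all ionomycin arrays than in any naive array, and in Traf1 the naive replicate 1 array sits apart at 7.54.

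Cflar was read by 2 rows, and both were higher after ionomycin. Its brighter row, which stands for the gene by the rule above, was at 10.66, 10.79 and 10.75 in ionomycin arrays and at 10.15, 10.23 and 10.11 in naive arrays. All ionomycin arrays lay above all naive arrays. Means were 10.73 ± 0.07 in ionomycin and 10.16 ± 0.06 in naive arrays (SD, n = 3 each), a log2 difference of 0.57 ± 0.06 (SE; 95% interval 0.42 to 0.73; limma adjusted p = 0.0364, and 0.0475 with the block). The second row was at 9.64, 9.80 and 9.75 in ionomycin arrays and at 9.39, 9.47 and 9.39 in naive arrays, again without overlap. Its log2 difference was 0.32 ± 0.07 (SE; 95% interval 0.15 to 0.48), and it did not pass in a limma fit over all 65770 rows (adjusted p = 0.208, and 0.143 with the block). Without both replicate 1 arrays it was 0.35 (adjusted p = 0.125). In that fit the brighter row passed without the block (adjusted p = 0.0477) and not with it (0.067).

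The 2 Cflar rows carry identifiers of different chromosomes. Array identifiers include a chromosome, which matched the RefSeq chromosome for 30004 of 30129 rows with a symbol found there (99.6%). The second row carries chromosome 1, where RefSeq places Cflar, and the brighter row carries chromosome 3. Among rows in identifier order, the nearest named rows on either side of the brighter row are C230034O21Rik and n-R5s195. In RefSeq these lie on either side of Gm9845, annotated as a pseudogene of chromosome 3, and Gm9845 is also listed there as a synonym of Cflar. Which locus the probes of the brighter row read was not tested, because probe sequences were not used here. With the chromosome 1 row standing for the gene, Cflar did not pass (log2 0.32, limma adjusted p = 0.136), so that 0 of the 8 genes were called. The brighter row exceeded the other by 1.015, 0.982 and 0.998 in ionomycin arrays and by 0.757, 0.751 and 0.72 in naive arrays. The change of this gap, 0.26, had an exact two-sided permutation p of 0.1, the smallest that 3 against 3 arrays allow.

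The call of the brighter Cflar row depended on the fit and the arrays. Its difference was positive in all 9 alternatives on 4 or 6 arrays and in all 6 with a single array left out. The row by itself ranged from 0.505 to 0.61, and the alternative that averaged both rows gave 0.44. The brighter row passed with the block, among genes above background and over all rows. It also passed with array weights, which called 2240 of all genes higher and 1654 lower, against 87 and 18 as reported. It passed without both replicate 1 arrays (log2 0.60, limma adjusted p = 0.0191), a fit that called 423 genes higher and 429 lower. It did not pass after quantile normalization (adjusted p = 0.063), after centring (0.0504), with trend and robust settings (0.0796) or as the mean of both rows (log2 0.44, adjusted p = 0.0682). It passed in 0 of 6 fits that left out a single array: limma's adjusted p was 0.0688, 0.241 and 0.203 without ionomycin replicates 1, 2 and 3, and 0.0573, 0.149 and 0.122 without naive replicates 1, 2 and 3. The chromosome 1 row was higher by 0.25 to 0.36 in the 7 alternatives that used it and in the 6 with a single array left out, and passed in 0 of them (smallest adjusted p = 0.0599, with array weights).

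**Figure D2:**
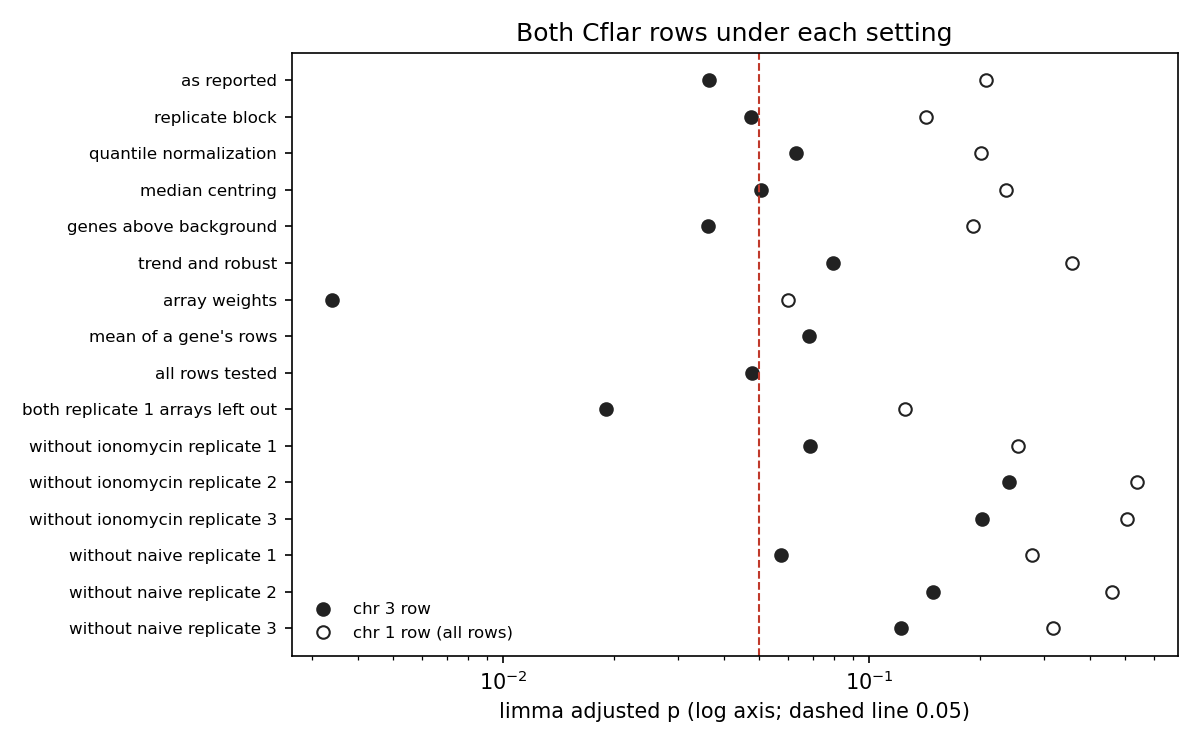
Limma adjusted p (horizontal log axis) of the brighter Cflar row (filled points, chr 3 identifier) and the second row (open points, chr 1 identifier) in the fit as reported and under each alternative; for the mean of a gene's rows the filled point is the mean of both rows. Filled points fall on both sides of the dashed line at 0.05, from 0.0034 to 0.241, and no open point lies left of it.

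Casp8, the initiator caspase that FADD recruits, had signals of 10.63, 10.96 and 10.97 in ionomycin arrays and of 11.08, 11.16 and 11.03 in naive arrays. The groups did not overlap, and ionomycin replicate 1 was the lowest array. Means were 10.85 ± 0.19 and 11.09 ± 0.07 in ionomycin and naive arrays (SD, n = 3 each). The log2 difference of -0.23 ± 0.11 (SE; 95% interval -0.49 to 0.02) did not pass (limma adjusted p = 0.334). Without both replicate 1 arrays it was -0.13 (adjusted p = 0.335), and without ionomycin replicate 1 alone it was -0.12.

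Fadd, the adaptor that carries a death domain and a death effector domain, was at 7.58, 7.52 and 7.51 in ionomycin arrays and at 8.10, 7.75 and 7.62 in naive arrays. Every ionomycin array was below every naive array, and naive replicate 1 was the highest of the 6. The log2 difference was -0.29 ± 0.12 (SE; 95% interval -0.59 to 0.01; limma adjusted p = 0.328), and -0.17 without both replicate 1 arrays (adjusted p = 0.229). Without naive replicate 1 alone it was -0.15.

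Cflar and Casp8 are neighbours on chromosome 1 in RefSeq, with 1 annotated gene and 0 protein-coding genes between them. Their difference within an array removes any shift shared by all rows of that array. Cflar minus Casp8 averaged -0.12 ± 0.13 in ionomycin arrays and -0.93 ± 0.01 in naive arrays (SD, n = 3 each), a change of 0.81 on the log2 scale. It was higher in 3 of 3 ionomycin arrays than in any naive array (exact two-sided permutation p = 0.1, the smallest possible). With the chromosome 1 row of Cflar the change was 0.55 (exact p = 0.1). Both Cflar rows were higher and Casp8 lower without overlap. The separation and both p-values follow from this and add no further evidence. The value at each group's mean compares different probes and carries no meaning of its own.

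The 250 bases before a RefSeq start (GRCm38.p6) are shown for this adjacent pair, whose signals differed in opposite directions. Capitals mark matches, on either strand, to any of 4 motifs searched: the NFAT core GGAAA, AP-1 TGANTCA, the cyclic AMP response element TGACGTCA and the NF-kB consensus. NFAT is the factor that calcium activates through calcineurin.
Cflar, chr1:58711241-58711490, plus strand: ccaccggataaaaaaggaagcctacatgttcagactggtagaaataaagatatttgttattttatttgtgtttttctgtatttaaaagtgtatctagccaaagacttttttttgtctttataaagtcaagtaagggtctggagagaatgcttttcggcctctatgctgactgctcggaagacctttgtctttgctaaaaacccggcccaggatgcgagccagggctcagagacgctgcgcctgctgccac
Casp8, chr1:58802252-58802501, plus strand: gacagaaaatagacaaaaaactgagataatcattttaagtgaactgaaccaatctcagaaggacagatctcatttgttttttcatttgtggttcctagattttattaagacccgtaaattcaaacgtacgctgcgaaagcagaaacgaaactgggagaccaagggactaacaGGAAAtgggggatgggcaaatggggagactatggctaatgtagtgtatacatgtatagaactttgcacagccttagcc
The Cflar window holds no match to any of the 4 motifs, and the Casp8 window holds 1 NFAT core, beginning 78 bases before the start. Among 32851 windows of this length in the table, 55.6% hold an NFAT core, 6.7% an AP-1 motif, 5.0% an NF-kB match and 1.5% a cyclic AMP response element. The RefSeq gene record of Cflar begins at position 58711311, inside the window shown, so most of the window lies within the annotated gene.

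Xiap, the X-linked inhibitor that binds caspases directly, gave the second smallest p among the 8 genes. It was at 8.60, 8.63 and 8.59 in ionomycin arrays and at 9.03, 8.85 and 8.78 in naive arrays. The ionomycin arrays had an SD of 0.02 and lay below all naive arrays. The log2 difference was -0.28 ± 0.08 (SE; 95% interval -0.46 to -0.09), the unadjusted p was 0.0105 in limma and the adjusted p was 0.217, so Xiap did not pass. Without both replicate 1 arrays the difference was -0.20 (adjusted p = 0.157), and with array weights it passed (-0.22, adjusted p = 0.0333). Array weights called 2240 of all genes higher and 1654 lower, against 87 and 18 in the fit as reported.

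Birc2 and Birc3 encode the cellular IAPs, ubiquitin ligases that TRAF2 brings to TNF receptors. Birc2 was at 8.22, 8.69 and 8.60 in ionomycin arrays and at 8.21, 8.74 and 8.93 in naive arrays. In both groups replicate 1 was the lowest array, and the groups overlapped. The log2 difference was -0.13 ± 0.21 (SE; 95% interval -0.64 to 0.38; limma adjusted p = 0.768), and without both replicate 1 arrays it was -0.20 (adjusted p = 0.252). Its sign turned without ionomycin replicate 1 (0.01) or naive replicate 3 (0.02), and it was -0.34 without naive replicate 1.

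Birc3 was at 8.80, 9.11 and 9.10 in ionomycin arrays and at 8.98, 9.24 and 9.25 in naive arrays. Replicate 1 was again the lowest array of each group, the groups overlapped, and the ionomycin array was lower at each replicate number, by 0.18, 0.13 and 0.15. The log2 difference was -0.15 ± 0.12 (SE; limma adjusted p = 0.526, 95% interval -0.44 to 0.14). With the replicate number as a block the interval narrowed to -0.29 to -0.02, and Birc3 did not pass (adjusted p = 0.167). Without both replicate 1 arrays the difference was -0.14 (adjusted p = 0.240), without ionomycin replicate 1 alone -0.05 and without naive replicate 1 alone -0.24. Birc3 is known as a gene that NF-kB induces.

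Birc2 and Birc3 are adjacent in RefSeq, with 0 genes between them on chromosome 9, and RefSeq lists each symbol as an older name of the other, so rows were matched by current symbol and Entrez ID. Birc3 minus Birc2 averaged 0.50 ± 0.08 in ionomycin arrays and 0.53 ± 0.23 in naive arrays (SD, n = 3 each). The change of -0.02 was no larger than the spread between arrays (exact two-sided permutation p = 1). A further row, C330006D17Rik, bears a name that RefSeq lists as a synonym of Birc2; it was singled out after its values were seen. It was at 8.76, 8.89 and 9.04 in ionomycin arrays and at 8.58, 8.81 and 8.87 in naive arrays, overlapping, with a log2 difference of 0.14 ± 0.11 (SE, limma adjusted p = 0.588 over all rows).

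The 250 bases before the starts of this second adjacent pair are shown for comparison, with capitals as above. Birc2 has 2 windows in the table, and the one shown holds the only cyclic AMP response element among the 12 windows of the 9 genes.
Birc2, chr9:7837058-7837307, minus strand: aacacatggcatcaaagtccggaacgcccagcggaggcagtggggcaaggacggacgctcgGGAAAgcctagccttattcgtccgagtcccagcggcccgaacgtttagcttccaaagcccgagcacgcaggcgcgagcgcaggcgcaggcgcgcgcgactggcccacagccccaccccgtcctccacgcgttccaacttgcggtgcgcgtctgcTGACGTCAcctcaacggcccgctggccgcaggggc
Birc3, chr9:7873171-7873420, minus strand: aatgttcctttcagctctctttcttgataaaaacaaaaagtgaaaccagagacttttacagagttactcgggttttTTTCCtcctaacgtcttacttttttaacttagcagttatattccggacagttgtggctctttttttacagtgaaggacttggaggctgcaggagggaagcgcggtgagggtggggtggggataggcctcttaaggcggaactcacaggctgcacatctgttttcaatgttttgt
The Birc2 window holds 1 NFAT core, beginning 189 bases before the start, and the response element, beginning 35 bases before it. The Birc3 window holds 1 NFAT core, beginning 174 bases before the start, and no match to the other 3 motifs. Over the 12 windows, 10 held an NFAT core, 0 an AP-1 motif and 1 an NF-kB match, which overlaps an NFAT core before the start of Traf3, a gene without a level here. The 10 windows belong to 7 of the 9 genes, as Xiap and Birc2 have several each. Of all windows 55.6% hold an NFAT core. The Birc2 window is 68.4% G and C and the Birc3 window 43.6%, beside a median of 52.4% over all windows.

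Traf1, an adaptor of the family that lacks a RING domain and pairs with TRAF2, varied most among arrays. It was at 8.48, 9.03 and 9.08 in ionomycin arrays and at 7.54, 8.92 and 8.91 in naive arrays. Replicate 1 was the lowest array of each group, and the groups overlapped. The differences at replicate numbers 1, 2 and 3 were 0.93, 0.12 and 0.17. The mean log2 difference of 0.41 ± 0.40 (SE; 95% interval -0.56 to 1.37; limma adjusted p = 0.614) fell to 0.14 without both replicate 1 arrays (adjusted p = 0.241) and turned to -0.05 without naive replicate 1 (adjusted p = 0.920).

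Traf2, the RING-bearing adaptor that carries the cellular IAPs, was at 8.60, 8.97 and 8.95 in ionomycin arrays and at 8.78, 8.66 and 8.55 in naive arrays. Ionomycin replicates 2 and 3 were above all naive arrays and ionomycin replicate 1 was not. The difference was -0.17 at replicate number 1, against 0.31 and 0.40 at numbers 2 and 3. The mean log2 difference was 0.18 ± 0.12 (SE; 95% interval -0.11 to 0.47; limma adjusted p = 0.462), and 0.36 without both replicate 1 arrays (adjusted p = 0.0659). It was 0.30 without ionomycin replicate 1 and 0.115 without ionomycin replicate 2. With array weights Traf2 passed as higher (0.29, adjusted p = 0.0497), in a setting that called 2240 of all genes higher and 1654 lower.

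**Figure D3:**
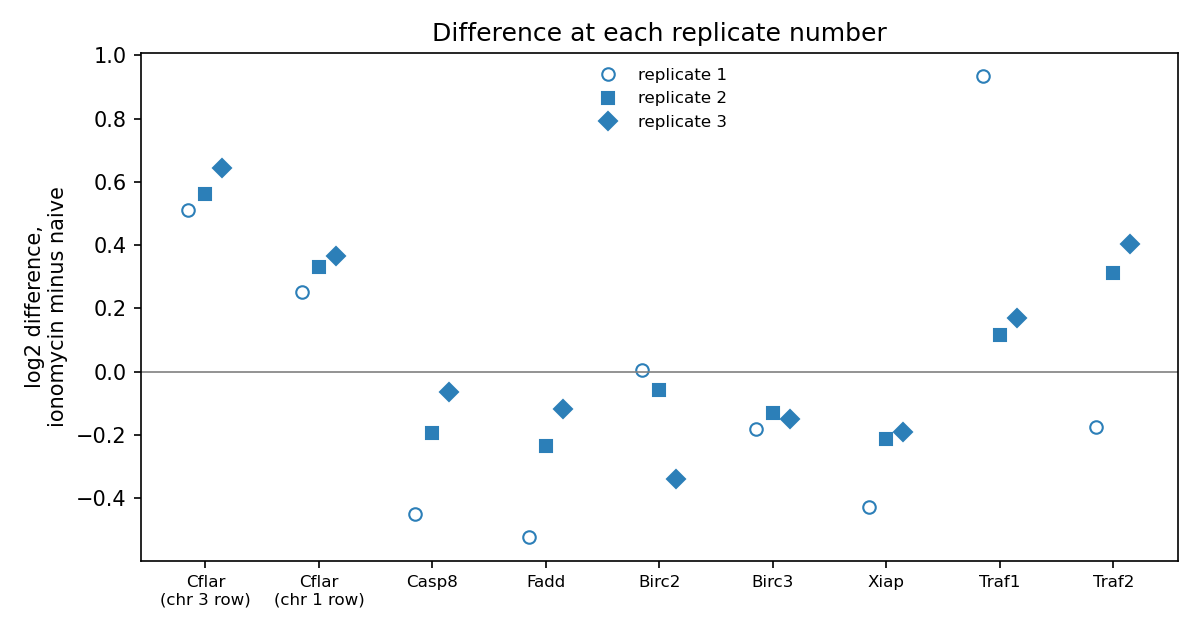
Log2 difference, ionomycin minus naive (vertical axis), of each member row at replicate numbers 1 (open circle), 2 (square) and 3 (diamond). Both Cflar rows are above 0 and Casp8, Fadd, Birc3 and Xiap below 0 at all 3 numbers, Traf1 spans 0.12 to 0.93, and Traf2 and Birc2 lie on both sides of 0.

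Arrays were also compared at each replicate number, although the numbers may not pair the samples. Cflar and Traf1 were higher at all 3 numbers, Casp8, Fadd, Birc3 and Xiap were lower at all 3, and Birc2 and Traf2 were mixed. For Cflar, Casp8, Fadd and Xiap this follows from the groups not overlapping. The share of all genes with the same direction at all 3 numbers was not computed. Among the 8 genes 1 was higher and 3 were lower without overlap between the groups. Over all genes 26.2% did not overlap, 18.9% higher and 7.31% lower. The members were chosen with earlier results of these data known, so nothing is read from these counts. Centring each array on its median left the sign of all 8 differences as it was and gave 0.51 for Cflar, -0.30 for Casp8, -0.36 for Fadd and -0.34 for Xiap.

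**Figure D4:**
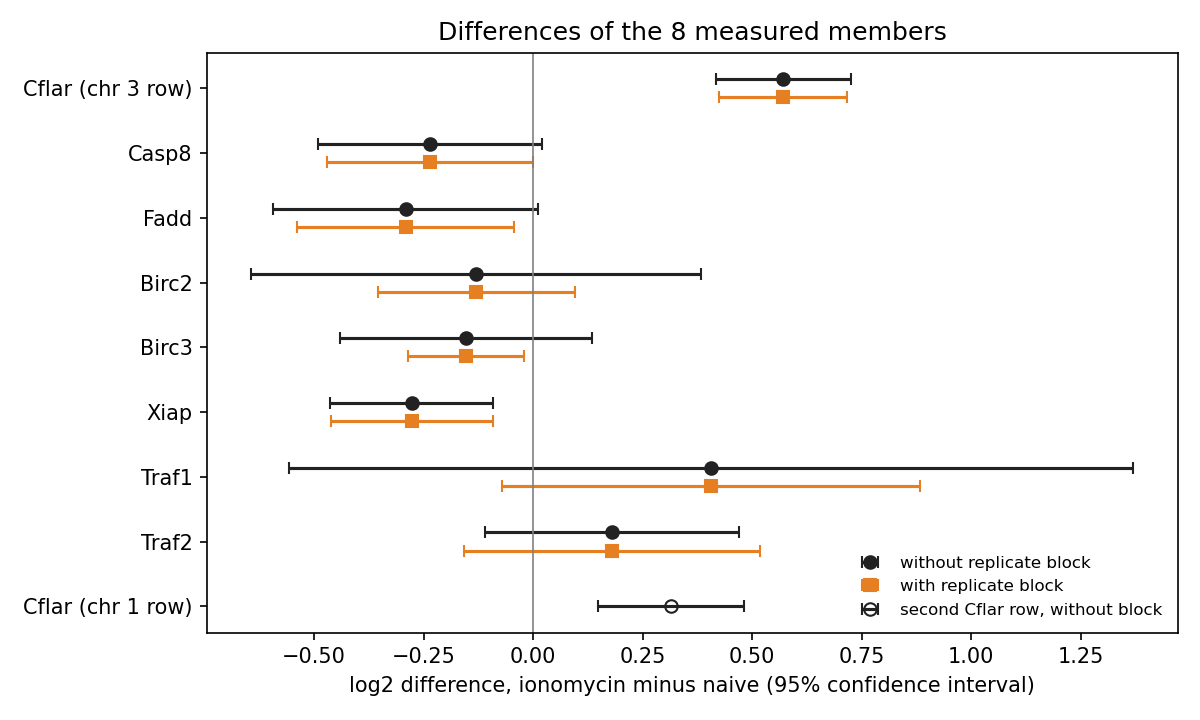
Log2 difference, ionomycin minus naive (horizontal axis), with its 95% confidence interval for the 8 measured genes, without (black circles) and with (orange squares) the replicate number as a block, and for the second Cflar row (open circle). Without the block the intervals of both Cflar rows and of Xiap lie on 1 side of 0, with it also those of Fadd and Birc3; that of Traf1 is the widest at -0.56 to 1.37, and the block narrows it to -0.07 to 0.88.

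The rest of the pathway was described by 6 lists of 75 genes, of which 68 had a row. Of these 68 genes 1 rose, 0 fell and 67 did not pass, in the fit without the block and in that with it. Tnfsf10, the death ligand TRAIL, whose receptor signals through FADD and caspase-8, was the gene that rose. It was at 8.58, 8.82 and 8.70 in ionomycin arrays and at 6.99, 7.50 and 6.95 in naive arrays, a log2 difference of 1.55 ± 0.16 (SE; limma adjusted p = 0.0285). It did not pass without ionomycin replicate 1, 2 or 3 (adjusted p = 0.0688, 0.182 and 0.162) or without naive replicate 3 (0.103). Of the 68 genes 14 were higher and 10 lower without overlap between the groups, beside 18.9% higher and 7.31% lower over all genes. The same counts for each list below are descriptions to be read against these shares.

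Among 14 measured death ligands and receptors the median difference was 0.19, and 4 of 14 were higher and 0 lower without overlap (18.9% and 7.31% over all genes). Tnf, the ligand of the TNF receptors, was at 12.00, 10.88 and 10.76 in ionomycin arrays and at 10.60, 8.39 and 7.36 in naive arrays. Its groups did not overlap, and the difference of 2.43 ± 0.83 (SE) did not pass (limma adjusted p = 0.273, and 0.0172 without both replicate 1 arrays). Tnfrsf1b, the second TNF receptor, which binds TRAF2 without a death domain, differed by 0.63 (adjusted p = 0.387), with naive replicate 1 at 9.38 below the 5 other arrays. Its difference was 0.235 without naive replicate 1 and 0.375 without both replicate 1 arrays. The mouse TRAIL receptor gene Tnfrsf10b differed by 0.26 and Fas by -0.0042, and neither passed (adjusted p = 0.542 and 0.991).

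Adaptors, kinases and ubiquitin editors of the TNF receptor complex had a median of -0.07 over 14 genes, with 2 higher and 3 lower without overlap (18.9% and 7.31% over all genes). Tnfaip3, the ubiquitin editor A20, was at 11.69 ± 0.17 in ionomycin and 10.92 ± 0.55 in naive arrays (SD, n = 3 each; log2 0.78, limma adjusted p = 0.275). Its difference was 0.46 without naive replicate 1 (adjusted p = 0.192) and 0.56 without both replicate 1 arrays (adjusted p = 0.0245). Map3k7, the kinase TAK1, differed by -0.37 (adjusted p = 0.443), by -0.13 without naive replicate 1 and by -0.28 without both replicate 1 arrays. The kinase gene Ripk3 and the gene of its substrate Mlkl, which carry out necroptosis when caspase-8 is inactive, differed by -0.30 and -0.08 (adjusted p = 0.380 and 0.863).

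Other caspases and the mitochondrial route had a median of -0.13 over 10 genes, with 1 higher and 2 lower without overlap (18.9% and 7.31% over all genes). Casp9, the initiator caspase of the mitochondrial route, was at 8.25, 8.38 and 8.35 in ionomycin arrays and at 8.58, 8.80 and 8.71 in naive arrays. The groups were separate, and the difference of -0.37 ± 0.08 (SE) did not pass (limma adjusted p = 0.138, and 0.0471 without both replicate 1 arrays). Apaf1, whose product activates caspase-9, was also lower without overlap (-0.33, adjusted p = 0.180). Casp4, which encodes the inflammatory caspase that senses lipopolysaccharide, differed by 0.74 (adjusted p = 0.319), with ionomycin replicate 1 at 9.87 above the other 2 ionomycin arrays at 8.86 and 8.72. Its difference was 0.38 without ionomycin replicate 1 and 0.45 without both replicate 1 arrays.

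The 10 other TRAFs and TRAF partners had a median of 0.01, with 1 higher and 1 lower without overlap (18.9% and 7.31% over all genes). These were Traf4, at 8.17 ± 0.02 in ionomycin and 7.85 ± 0.17 in naive arrays (log2 0.31, limma adjusted p = 0.227), and Traf7, at 8.93 ± 0.04 in ionomycin and 9.18 ± 0.07 in naive arrays (-0.25, adjusted p = 0.188; SD, n = 3 each). Traf6, which serves Toll-like and interleukin 1 receptors, differed by 0.09 (adjusted p = 0.708) and Traf5 by 0.01 (adjusted p = 0.973).

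Among 10 other IAPs and IAP antagonists the median was -0.12, and 0 were higher and 3 lower without overlap (18.9% and 7.31% over all genes), namely Htra2, Naip2 and Naip6. Htra2, a mitochondrial protease that can remove IAPs, was at 8.98 ± 0.15 in ionomycin and 9.32 ± 0.11 in naive arrays (SD, n = 3 each; log2 -0.34, limma adjusted p = 0.223). Birc6, a giant IAP with ubiquitin-conjugating activity, differed by -0.31 (adjusted p = 0.337, and by -0.17 without naive replicate 1), and Diablo, the IAP antagonist Smac, by -0.03 (adjusted p = 0.809). Naip2, Naip5 and Naip6 are close paralogs whose rows may share signal, and differed by -0.27, -0.21 and -0.23.

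Of 10 NF-kB kinases, subunits and inhibitors, 0 passed, 6 were higher and 1 lower without overlap (18.9% and 7.31% over all genes), and the median was 0.30. Nfkbia, the inhibitor IkB-alpha that NF-kB itself induces, was at 9.95, 9.56 and 9.40 in ionomycin arrays and at 8.96, 8.87 and 8.81 in naive arrays (log2 0.76 ± 0.14 SE, limma adjusted p = 0.113, and 0.0213 without both replicate 1 arrays). Nfkb2, the precursor of p52, differed by 0.41 (adjusted p = 0.256), and by 0.20 without both replicate 1 arrays. Map3k14, the kinase NIK that the TRAF2, TRAF3 and cellular IAP complex keeps low as a protein, differed by 0.31 (adjusted p = 0.267) and Relb, the partner of p52, by 0.34 (adjusted p = 0.193). The inhibitor genes Nfkbie and Nfkbib differed by 0.40 and 0.28 (adjusted p = 0.159 and 0.231), also without overlap. Rela, the p65 subunit, was the gene lower without overlap (-0.21, adjusted p = 0.256). The kinase gene Ikbkb differed by -0.17, Ikbkg by -0.02 and the subunit gene Rel by 0.13, all with overlap.

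**Figure D5:**
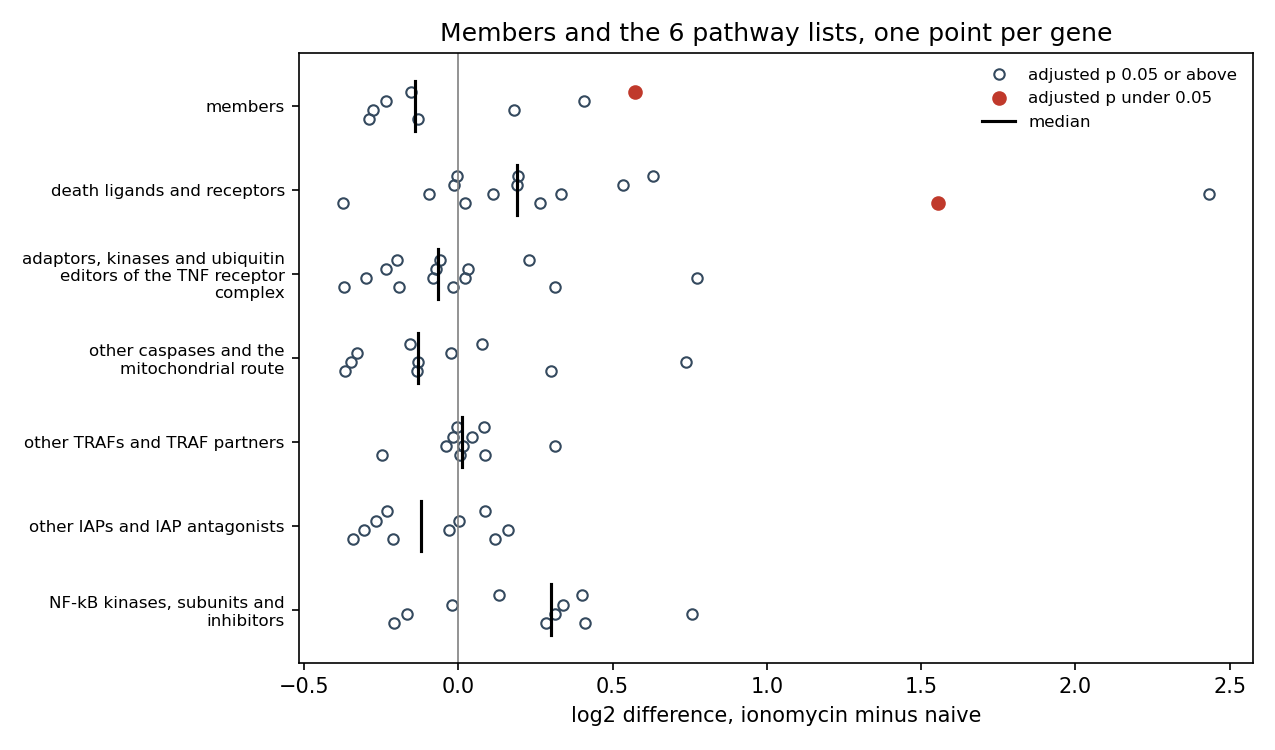
Log2 difference, ionomycin minus naive (horizontal axis), of each measured gene, 1 point a gene, for the 8 members and the 6 pathway lists (rows), with a black bar at each median and filled points for genes past the limma threshold. Filled points are Cflar among the members and Tnfsf10 among the death ligands and receptors, and the list medians run from -0.13 to 0.30.

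Profiles across the 6 arrays were compared for Cflar, Birc3 and Traf1 by the root mean square distance of row-centred log2 values, over 13876 genes above background that RefSeq lists, leaving out predicted genes and small RNAs. For Cflar only the brighter row was used, with its chromosome 3 identifier. Nearest to that row were Sfrp4 (distance 0.0483, log2 difference 0.65), Fgf2 (0.0561, difference 0.49) and Gpr171 (0.0658, difference 0.58). Nearest to Birc3 were Naaa, Armt1 and Gsdme, with distances of 0.0138, 0.0241 and 0.0311 and differences between -0.18 and -0.17. Nearest to Traf1 were Plekha2, P4ha2 and Prkab2, with distances of 0.0524, 0.0868 and 0.0913 and differences of 0.33, 0.39 and 0.30. Sfrp4 averaged 6.51 in ionomycin and 5.86 in naive arrays, and the second of these values is under 6.05, the level taken as background.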

How the data were processed

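Total RNA of 6 BMMC samples was labelled with biotin and measured on whole-transcript arrays, as the labels state. The authors deposited a table of log2 signals for 65770 rows and 6 arrays (0 missing values), made with the R package oligo per the submitters' processing notes; the oligo version is not given in the sources used here, nor are build, normalization or summarization. The log2 scale was inferred from the range of 3.01 to 14.63; the medians of the columns run from 5.88 to 6.03, and whether arrays were centred or scaled is unknown.

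Rows were named from the platform annotation: 30439 have 1 symbol (repeats of the same symbol counted once), 2146 several and 33185 none. In 827 rows the Entrez ID gave a newer RefSeq symbol (GRCm38.p6). For the 252 genes with several rows the brightest was kept, which left 30102 genes. Background is the 95th percentile of the means of 1771 chemosensory receptor genes, a log2 level of 6.05, exceeded by 18897 genes.

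Ionomycin was compared with naive, groups taken from the titles, with lmFit and eBayes of limma 3.58.1 under R 4.3.3, two-sided, without a block or filter, with Benjamini-Hochberg adjustment over all genes tested; every adjusted p is limma's. The fit was tested on simulated data. Errors are moderated SE or SD. Replicate numbers, taken from the titles, served as the block. Deviations from group means correlated at 0.711, 0.476 and 0.469 for numbers 1, 2 and 3, across genes, which are not independent replicates. Deviations of arrays with unlike numbers were not compared, and replicate 1 lay apart in both groups. These values therefore cannot show that the numbers pair the samples. The block is given as an alternative where it changes a call or a count. Within-array differences were tested by exact permutation, with 2 comparisons planned: Cflar minus Casp8 and Birc3 minus Birc2. The same test was also run, outside this plan, on Cflar minus Casp8 with the chromosome 1 row and on the gap between the 2 Cflar rows. Named genes are all members, list genes past the threshold and otherwise the 2 with the largest difference in each list, with the 3 nearest profiles of Cflar, Birc3 and Traf1. Outside this rule, after their values had been computed, Tnfrsf10b, Fas, Ripk3, Mlkl, Apaf1, Traf5, Traf6, Diablo, Naip2, Naip5, Naip6, Map3k14, Relb, Nfkbie, Nfkbib, Rela, Ikbkb, Ikbkg and Rel were added. Members, lists, settings and tests were chosen with earlier results of these data known. Promoters were read from RefSeq windows (all 9 genes matched). Alternatives were the block, quantile normalization, centring, exclusion of genes under background, a mean-variance trend with robust eBayes, weighting of arrays, averaging of a gene's rows, testing of all rows, leaving out both replicate 1 arrays or each array, and, chosen after seeing the data, the other Cflar row.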

Additional observations from a re-analysis of the deposited data

How the results depend on the processing

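The count of 1 member higher became 0 after quantile normalization, after centring, with trend and robust settings, with the mean of a gene's rows and, in a setting chosen after seeing the data, with the chromosome 1 row of Cflar. With array weights 2 were higher and 1 lower, and the counts over all genes were 2240 higher and 1654 lower, against 87 and 18. Genes of the pathway lists then counted 10 higher and 8 lower, against 1 and 0. Without both replicate 1 arrays the counts were 423 higher and 429 lower over all genes, and 4 and 1 in the lists. Lower genes numbered 33 with the replicate block, 32 after centring and 9 with trend and robust settings. With a single array left out, 0 members were higher or lower, list genes higher ranged from 0 to 1, and all genes from 1 to 95 higher and from 0 to 55 lower; these fits have fewer arrays. Over them Birc2 ranged from -0.34 to 0.022 (0.011 without ionomycin replicate 1) and Traf1 from -0.05 to 0.64. Birc3 minus Birc2 turned to 0.01 after quantile normalization and 0.058 without both replicate 1 arrays, and ranged from -0.13 to 0.10 with an array left out. In the fit over genes the replicate block changed no call of a member or list gene. For the remaining changes the cause was not tested.

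The differences of Cflar, Casp8, Fadd, Birc3, Xiap and Traf2 kept their sign in all 16 settings, the reported one included. These settings reuse the same arrays and are not independent. For Cflar, Casp8, Fadd and Xiap the groups do not overlap, so leaving arrays out could not change the sign. Casp8, Fadd, Birc3, Xiap and Traf2 did not pass in the fit as reported. All differences rest on at most 3 arrays a group, and all 8 genes lie above the background level. The locus read by the brighter Cflar row was not tested.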
